A study of Mus musculus with 8 samples.

Results

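The genes on either side of Fto were examined in thoracic aorta of mice that lacked Fto, with attention to Irx3. The set holds 10 genes, Tox3, Chd9, Rbl2, Aktip and Rpgrip1l before Fto and Irx3, Crnde, Irx5, Irx6 and Lpcat2 after it, out of 21368 genes with a named probe on the array. They lie around Fto but are not all of the genes there, and they were chosen with earlier results of these data known. All 11 of their probes were taken, 1 for each gene and 2 for Crnde. Gene expression was read on 8 single-dye (Cy3) microarrays, 1 for each sample, 4 from Fto -/- and 4 from Fto +/+ mice. Both genotypes were of C57BL6J/NMRI background and labelled male; the labels used here give neither an age, nor how the allele was made, nor which part of Fto it removes. Nor do they state that the 4 samples of a genotype came from different mice, so a p-value covers sample-to-sample spread, which may be technical.

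Fto encodes a demethylase of RNA adenosine. In mammals its long introns hold enhancers that reach across to Irx3, and human variants in these introns are associated with body weight. Irx3, Irx5 and Irx6 form 1 of the Iroquois clusters, homeobox genes that pattern tissues in the embryo; Irx3 and Irx5 also act in fat cells, where they restrain heat production. Rpgrip1l, which lies head to head with Fto, encodes a protein of the primary cilium.

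Rpgrip1l and Fto are read from opposite strands and their annotated starts lie 303 bases apart, so the stretch between them serves as upstream sequence for both. In RefSeq (GRCm38.p6) the promoter windows of both genes, 250 bases before to 50 bases after the start, share 198 bases at chr8:91313275-91313472. It is shown, on the strand of Fto, because it belongs to the promoter windows of the deleted gene and of Rpgrip1l alike. The next sequence is the 250 bases before the Irx3 start, chr8:91801655-91801904 on the minus strand, shown because Irx3 had the largest difference of the set. Capitals mark the dinucleotide CG, searched on the printed strand, which finds the same sites on the other.
Rpgrip1l and Fto shared stretch: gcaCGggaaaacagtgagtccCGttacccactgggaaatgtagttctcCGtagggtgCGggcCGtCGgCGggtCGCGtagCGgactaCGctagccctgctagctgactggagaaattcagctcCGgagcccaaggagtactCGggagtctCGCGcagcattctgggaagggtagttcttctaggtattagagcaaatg
Irx3 upstream: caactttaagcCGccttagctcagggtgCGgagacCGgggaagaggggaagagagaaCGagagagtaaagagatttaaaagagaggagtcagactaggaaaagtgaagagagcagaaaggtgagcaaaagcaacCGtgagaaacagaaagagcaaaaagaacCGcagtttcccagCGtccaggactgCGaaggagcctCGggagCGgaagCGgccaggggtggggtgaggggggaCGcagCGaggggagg

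The shared stretch holds 15 CG in 198 bases and the Irx3 stretch 13 in 250. Over 32851 promoter windows of 300 bases, longer than either stretch, the median is 7 CG, and 94.6% hold at least 1. Of the 10 genes, 8 matched a window, 11 windows in all. The window of Tox3 holds 52 CG, a count that 0.575% of all windows reach, and those of Rpgrip1l and Crnde 22 each, reached by 23.1%. The window of Irx3 holds 14 CG, as does that of Rbl2 (reached by 36.3%), that of Lpcat2 holds 15, and the windows of Chd9 hold 19 and 1. The 3 windows of Aktip hold 26, 9 and 34. CG counts did not separate the genes that were measured in aorta from those that were not, since Tox3 and Crnde, with 52 and 22, were below background and Rbl2 and Irx3, with 14 each, were above it. No methylation was measured.

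The labels were checked first. Fto was at log2 levels of -2.53, -2.19, -2.56 and -2.77 in Fto -/- replicates 1 to 4 and of 0.60, 0.85, 0.47 and 0.35 in Fto +/+ replicates 1 to 4; a level is the log2 of the processed intensity relative to the 75th percentile of its array. The genotypes did not overlap, and the log2 difference was -3.08 ± 0.15 (SE; exact two-sided permutation p = 0.0286, the smallest that 4 against 4 can give; limma adjusted p = 0.000403). With normexp background correction, which here adds an offset of 50 to every corrected intensity, it was -1.96. In every Fto -/- sample the scanner software still called the Fto probe well above background, so some signal remained. Unscaled, this probe read 49.2 to 70.1 in Fto -/- and 409 to 751 in Fto +/+ samples. It is not known here whether the probe lies inside the deleted sequence. The free-text description of each sample names the other genotype than its title does. Groups follow the title, and the Fto level goes with it. All samples are labelled male, yet both Xist probes were well above background on all 8 arrays, while Ddx3y, Kdm5d, Eif2s3y and Zfy1 were above it on 0 arrays and Uty on 1, by 1 of its 2 probes. All 6 smooth muscle markers checked, Acta2 and Myh11 among them, were well above background on every array, as were all 5 endothelial and all 5 fibroblast markers. The arrays differed in marker RNA of other cell types. The T cell and thymocyte marker Rag1 was above background on 4 arrays, Fto -/- replicates 1, 3 and 4 and Fto +/+ replicate 2. In bulk tissue, fewer cells of a type and less RNA per cell cannot be told apart.

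Of the 11 probes, 5 were tested, those of Chd9, Rbl2, Aktip, Rpgrip1l and Irx3. To be tested, a probe had to be called well above background by the scanner software on 4 or more arrays. Of the other 6 probes, 5 were not well above background on any array and the Lpcat2 probe was on 1. No probe of the set was saturated.

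Among the Iroquois genes of this cluster, Irx3 alone was measured in aorta. Irx5 had intensities of 5.76, 5.96, 5.97 and 6.89 in Fto -/- samples and 7.06, 27.6, 7.66 and 7.16 in Fto +/+ samples. The value of 27.6, in Fto +/+ replicate 2, stood apart from the other 7 but was still not called well above background. Irx6 read 21.8, 8.16, 22.1 and 9.23 in Fto -/- samples and 9.85, 11.3, 10.3 and 10.4 in Fto +/+ samples. Its 2 higher values, in Fto -/- replicates 1 and 3, were likewise not called. The lowest intensity that was called well above background ran from 20.8 to 40.9 between arrays, so these probes bound the signal and give no level. Crnde, the long noncoding RNA gene that lies beside Irx5, had 1 probe at 6.45 to 16 and another at 7.24 to 17.9. Tox3, which encodes a chromatin protein with an HMG box, read 6.54 to 9.22 over the 8 arrays, the narrowest range of the dim probes. Lpcat2, which encodes an enzyme that makes platelet-activating factor, was called on Fto -/- replicate 1 alone, at 41.5, with 22.5, 19.5 and 34 in the other Fto -/- samples and 35.8, 10.5, 19.3 and 9.4 in Fto +/+ samples. These intensities are not scaled between arrays; Tox3, Irx5 and 1 Crnde probe were higher on every Fto +/+ array before scaling, but on the scaled log2 level the genotypes overlapped for all 6 probes.

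**Figure D1:**
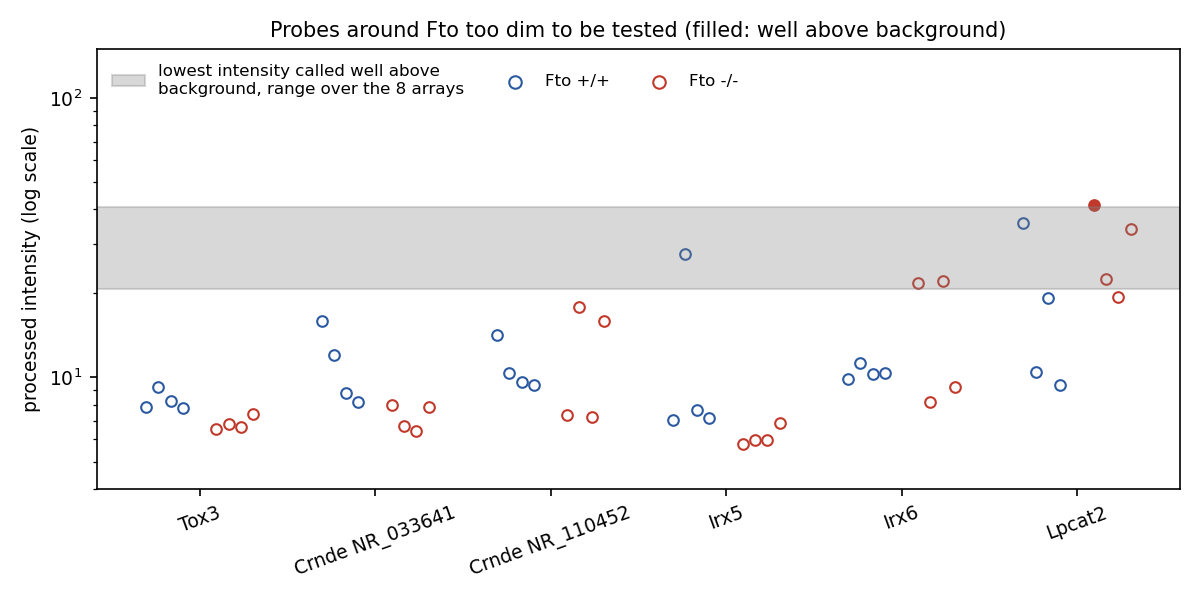
Processed intensity (log axis) of the 6 probes too dim to be tested, 1 point for each sample, blue for Fto +/+ and red for Fto -/-, filled where well above background; the grey band spans the lowest intensity so called on each array, 20.8 to 40.9. Only Lpcat2 has a filled point, at 41.5 in Fto -/- replicate 1.

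Irx3 was lower on average in Fto -/- samples, by 1.79-fold, but the difference did not pass the threshold. Its log2 levels were -1.66, -1.71, -2.21 and -1.73 in Fto -/- replicates 1 to 4 and -0.90, -2.06, -0.59 and -0.40 in Fto +/+ replicates 1 to 4, measured above background on all 8 arrays. Fto -/- replicates 1, 2 and 4 lay close together with replicate 3 below them, and 3 of the 4 Fto +/+ samples lay above all Fto -/- samples. The fourth, Fto +/+ replicate 2, lay 1.15 below the nearest other Fto +/+ sample and within the Fto -/- range, so the genotypes overlapped. The means were -1.82 ± 0.26 and -0.99 ± 0.74 (SD, n = 4 each). The log2 difference was -0.84 ± 0.34 (SE; 95% interval -1.60 to -0.07), with an adjusted p of 0.229 in limma. That interval reaches from 1.05-fold to 3.03-fold lower. With normexp background correction and its offset of 50 the difference was -0.52 (limma adjusted p = 0.214). An added offset shrinks log2 differences most in dim probes, and the Irx3 intensities were 63.8 to 253. Irx3 was the 1 of 5 tested genes with an unadjusted limma p under 0.05, as 19.0% of all tested probes had (10.3% as lower in Fto -/-), so this count is near the background. In absolute size, 96% of all tested probes had a difference as small as that of Irx3 or smaller.

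Without Fto +/+ replicate 2 the Irx3 difference was -1.19 ± 0.18 (SE) with a limma adjusted p of 0.0379. Of 22 alternatives, this was the only fit in which any of the 10 genes passed. Over all 25292 tested probes, limma called 113 higher and 76 lower in that fit. Without 1 of the other 7 arrays the Irx3 difference ran from -0.89 to -0.64 with adjusted p from 0.263 to 0.451. Fto +/+ replicate 2 also carried 1 of the higher levels of T cell markers. The mean centred level of the 4 tested T cell and thymocyte markers was 1.38, -1.20, 1.88 and 1.13 in Fto -/- replicates 1 to 4 and -1.41, 1.53, -1.87 and -1.45 in Fto +/+ replicates 1 to 4. The intensity of the 6 listed markers, summed relative to the 75th percentile, was 2.08 to 7.77 in Fto -/- samples and 1.85 to 6.44 in Fto +/+ samples. Of the 6 markers 1 to 5 were above background on an array. Irx3 was high on 3 of the 4 arrays with low T cell markers, all Fto +/+, and low on Fto -/- replicate 2, the fourth of them. When the T cell level entered the fit, the Irx3 difference was -0.36 ± 0.27 (SE; limma adjusted p = 0.489). The T cell level was itself higher in most Fto -/- than in most Fto +/+ samples, so that fit separates it only in part from genotype. Without the 4 arrays on which Rag1 was above background, 1 Fto -/- against 3 Fto +/+ arrays, the Irx3 difference was -1.08. There the lone Fto -/- sample is assumed to vary like the Fto +/+ samples. These settings, and the fat cell covariates given next, were chosen after seeing the data.

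Fat cell markers were read beside Irx3, a gene that acts in adipocytes. The 4 tested brown adipocyte markers, Ucp1 and Cidea among the list, had a mean centred level of -0.19 to 2.26 in Fto -/- and -2.14 to -0.23 in Fto +/+ samples. The summed relative intensity of the 5 listed brown markers was 86.4 to 463 and 27.1 to 83.7. The genotypes did not overlap in either measure. Among single tested probes, 12.1% did not overlap in either direction. Of the 4 tested brown markers 0 passed in limma, and 4 had an unadjusted limma p under 0.05, beside 19.0% of all tested probes. The 4 tested white adipocyte markers were at -0.32 to 1.22 and at -1.71 to 0.87. The summed relative intensity of the 5 listed white markers was 110 to 339 and 32.5 to 318. Among these, leptin (Lep) was not above background on any array. On Fto +/+ replicate 2, both fat lists were at their lowest and Irx3 was low as well, while on Fto -/- replicate 3, both were at their highest and Irx3 was at its lowest. With the white level as a covariate, the Irx3 difference was -1.03 ± 0.32 (SE; limma adjusted p = 0.195). With the brown level it was -1.25 ± 0.52 (SE; limma adjusted p = 0.555). The brown level did not overlap between genotypes, so that fit cannot separate it well from genotype. Limma calls over all probes went from 213 higher and 206 lower to 3 and 2 in that fit. The part of either tissue in the Irx3 values was not tested beyond these fits.

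**Figure D2:**
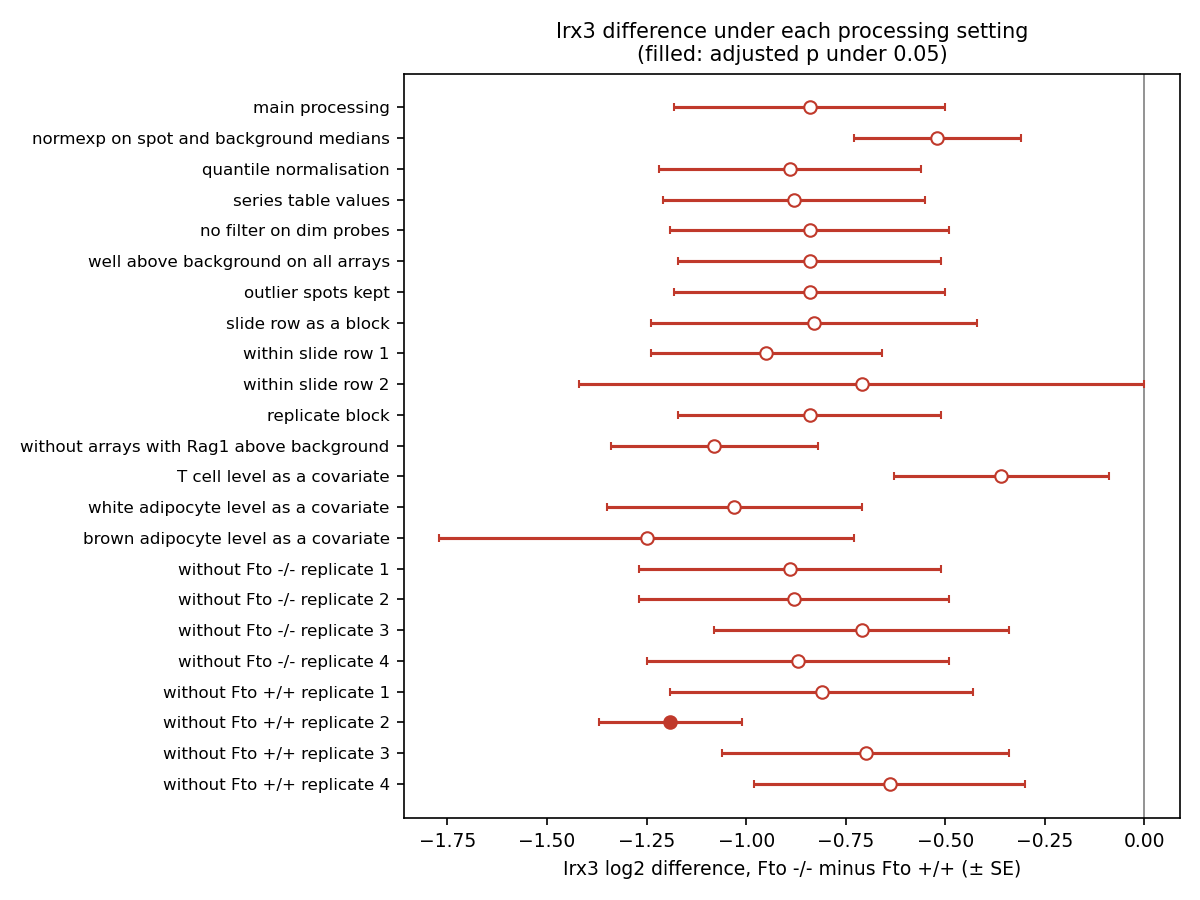
Irx3 log2 difference, Fto -/- minus Fto +/+, with its SE under each processing setting and with single arrays left out; filled points have an adjusted p under 0.05. The reported value and its 22 alternatives lie below 0, from -1.25 to -0.36, and 1 is filled, that without Fto +/+ replicate 2.

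The genes whose profile over the 8 arrays was most like that of Irx3 were Cited4, Bik, Bmf, Dclre1c and Pgpep1l. Likeness was the root mean square difference between log2 profiles, each centred on its own mean. It was 0.19 for Cited4, 0.27 for Bik, 0.28 for Bmf and for Dclre1c and 0.29 for Pgpep1l, against a median of 0.67 over 25268 tested probes; a probe with no variation at all would score 0.64. Cited4 encodes a transcriptional coactivator, Bik and Bmf encode BH3-only proteins of apoptosis, and Dclre1c encodes the nuclease Artemis. The list is a description over 8 arrays: because the genes were picked for this likeness, their low value in Fto +/+ replicate 2 and the direction of their genotype differences follow largely from the choice. Bik differed by -0.84 ± 0.21 and did not overlap between genotypes, at -0.56 to -0.07 in Fto -/- and 0.02 to 0.95 in Fto +/+ samples, and did not pass (limma adjusted p = 0.0865). The differences of the other 4 lay between -1.04 (Pgpep1l) and -0.51 (Bmf), with adjusted p from 0.107 to 0.384. Pgpep1l was above background on 2 Fto -/- and 4 Fto +/+ arrays and Dclre1c on 2 and 3, so their differences rest in part on values at background.

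**Figure D3:**
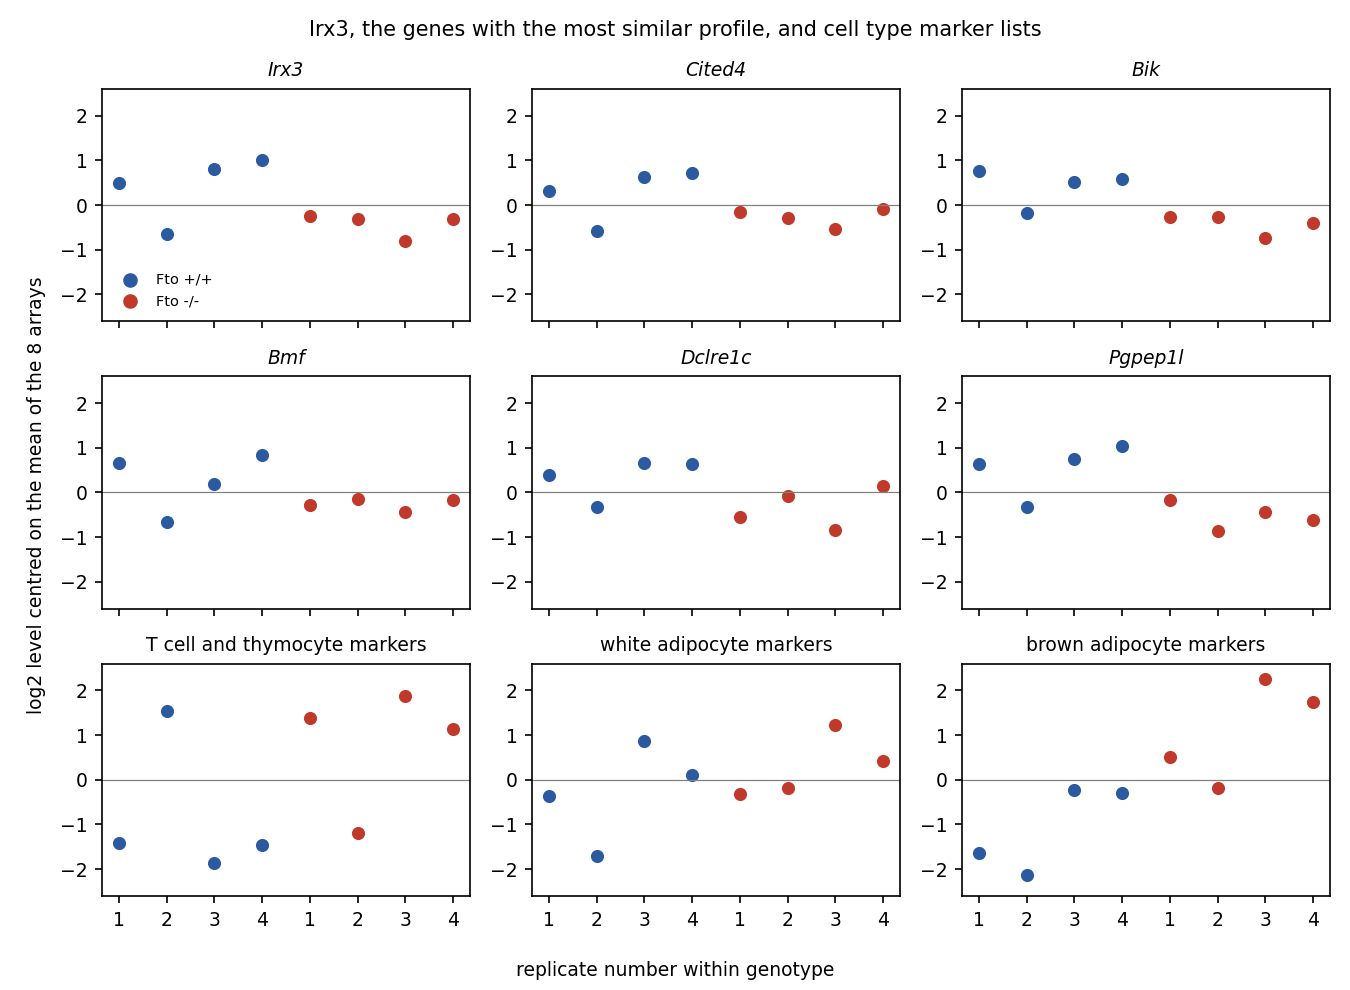
Log2 level centred on the mean of the 8 arrays for Irx3, the 5 genes of most similar profile, and the mean of 3 marker lists, by replicate number within each genotype (blue Fto +/+, red Fto -/-). Fto +/+ replicate 2 is the lowest Fto +/+ sample in all 6 gene panels, and in the T cell panel the highest, at 1.53.

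Rpgrip1l, the gene that shares its upstream stretch with Fto, showed no difference beyond the spread between samples. Its log2 levels were -2.44, -2.32, -2.62 and -2.44 in Fto -/- replicates 1 to 4 and -2.02, -2.01, -2.28 and -3.05 in Fto +/+ replicates 1 to 4. The last of these, Fto +/+ replicate 4, was the lowest of all 8 and not well above background. The other 3 Fto +/+ samples lay above all Fto -/- samples, so a single array made the genotypes overlap. The difference was -0.12 ± 0.22 (SE; 95% interval -0.63 to 0.40; limma adjusted p = 0.812), an interval that spans from 1.54-fold lower to 1.32-fold higher. Without Fto +/+ replicate 4 it was -0.35 (limma adjusted p = 0.12), and it turned in direction without the 4 arrays with Rag1 (0.13). With the brown adipocyte level as a covariate it was 0.35 ± 0.30 (SE; limma adjusted p = 0.808), in a fit that cannot separate that level well from genotype. The probe is dim, at intensities of 38.6 to 103, which limits what it can show.

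Aktip, whose product links Hook proteins to vesicle transport along microtubules, had a small and even difference. Its levels were 0.13, 0.21, 0.21 and 0.17 in Fto -/- replicates 1 to 4 and 0.45, 0.25, 0.43 and 0.27 in Fto +/+ replicates 1 to 4. Every Fto -/- sample lay below every Fto +/+ sample. Among the 5 tested genes this holds for Aktip alone, and among all tested probes for 12.1% in either direction. The log2 difference was -0.17 ± 0.09 (SE; 95% interval -0.37 to 0.03; limma adjusted p = 0.341), or 1.12-fold lower. It was negative in all 22 alternatives, from -0.27 to -0.12, and passed in 0 of them.

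Rbl2 and Chd9 were measured above background on all 8 arrays, with narrow ranges. Rbl2, which encodes the pocket protein p130 that holds cells in quiescence, had levels of 0.37, 0.41, 0.53 and 0.44 in Fto -/- and 0.31, 0.60, 0.48 and 0.43 in Fto +/+ replicates 1 to 4. The Fto -/- range lay inside the Fto +/+ range. The difference was -0.02 ± 0.10 (SE; limma adjusted p = 0.94), and its 95% interval of -0.23 to 0.20 holds changes of up to 1.18-fold lower and 1.15-fold higher. Chd9, which encodes a chromatin remodelling helicase, had levels of 2.16, 2.38, 2.15 and 2.27 in Fto -/- and 2.08, 2.28, 2.05 and 2.04 in Fto +/+ replicates 1 to 4. Its groups overlapped through Fto +/+ replicate 2. The difference was 0.13 ± 0.10 (SE; 95% interval -0.10 to 0.35; limma adjusted p = 0.521).

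**Figure D4:**
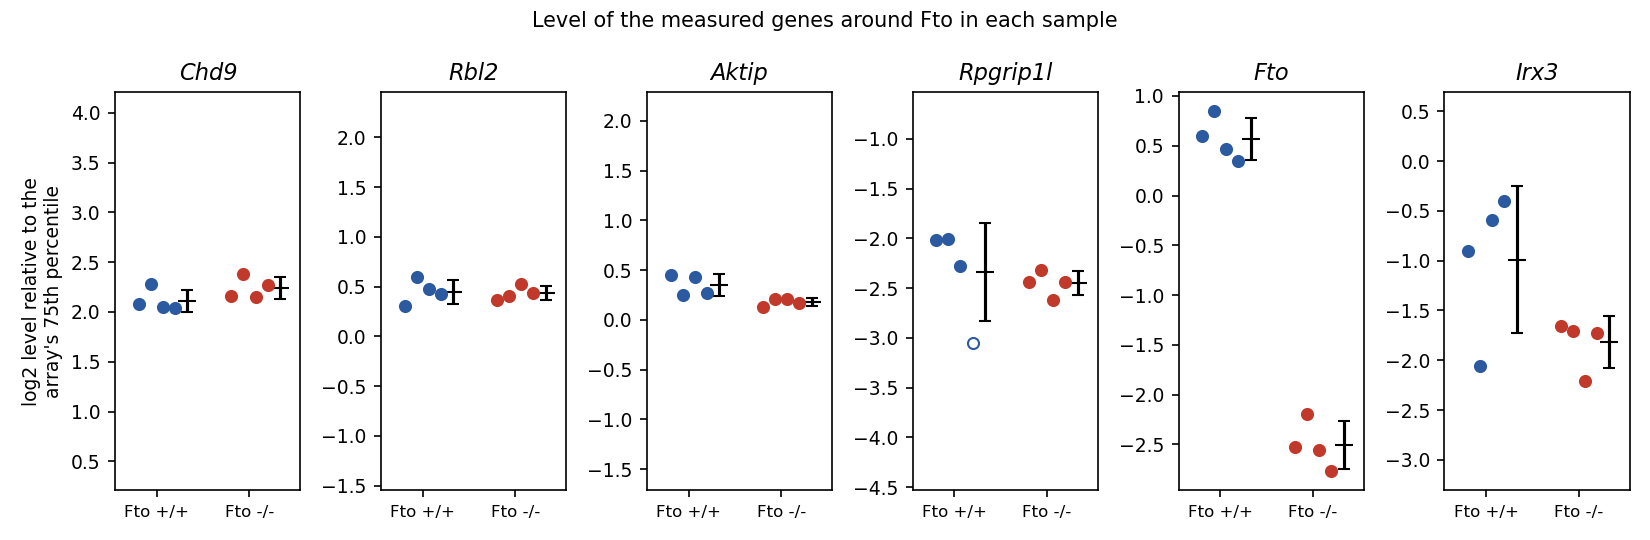
Log2 level relative to the array's 75th percentile for the 5 tested genes and Fto, 1 point for each sample, open where not well above background, with the mean ± SD (n = 4) at the side; every panel spans 4 log2 units. Fto separates by 3.08, Irx3 spreads widely in Fto +/+ samples, and Chd9, Rbl2 and Aktip lie within narrow ranges.

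Over the set, 0 of 5 tested genes passed in limma, against 1.66% of the 25292 tested probes (0.842% higher and 0.814% lower in Fto -/-). The median log2 difference of the 5 was -0.12 (1 higher, 4 lower), beside -0.02 over all tested probes, and the median absolute difference 0.13 beside 0.17. These 5 passed the filter and do not stand for all 10 genes.

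The wider neighbourhood was read in the same fit. The window of 40 genes on each side of Fto held 70 other genes, of which 17 had a named probe and 8 were tested. Of these 0 passed, and 4 had an unadjusted limma p under 0.05, 1 higher and 3 lower, beside 19.0% of all tested probes (10.3% lower); 8 genes are few to set against that share. Nkd1, which encodes an inhibitor of Wnt signalling, had the smallest p, with levels of 2.13 ± 0.24 in Fto -/- and 2.74 ± 0.21 in Fto +/+ samples (SD, n = 4 each), no overlap and a difference of -0.61 ± 0.15 (SE; limma adjusted p = 0.0894). A dimmer second Nkd1 probe differed by -0.19 (adjusted p = 0.812). Gnao1, which encodes a G protein alpha subunit, differed by -0.38 ± 0.12 (adjusted p = 0.137) and by 0.35 with its second probe (adjusted p = 0.576), and Cyld, a deubiquitinase gene, by -0.28 ± 0.09 (adjusted p = 0.155) and 0.23 (adjusted p = 0.551). For both, the probes differed in sign.

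Mmp2, the gelatinase gene that lies between Irx6 and Lpcat2, is the nearest tested gene on the far side of Irx3. Its levels were 3.49 ± 0.23 in Fto -/- and 2.78 ± 0.63 in Fto +/+ samples (SD, n = 4 each), which overlapped; the difference was 0.71 ± 0.29 (SE; limma adjusted p = 0.237). Beside it, the level of the fibroblast markers was -0.04 to 0.40 in Fto -/- and -0.83 to 0.23 in Fto +/+ samples; Fto +/+ replicate 4 was the lowest in both, with Mmp2 at 1.90. The part of the fibroblast level in the Mmp2 values was not tested. Slc6a2, the noradrenaline transporter gene, was above background on 3 Fto -/- and 0 Fto +/+ arrays and was not tested. The carboxylesterase genes Ces1d and Ces1f, farther out, differed by 1.18 ± 0.60 and 1.56 ± 0.76 (SE; limma adjusted p 0.322 and 0.309). Ces1f was not above background on Fto +/+ replicate 2 (intensity 25), which sets its Fto +/+ mean in part. Both were lowest on that array and highest on Fto -/- replicate 3, as were both fat marker lists, whose part was not tested.

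**Figure D5:**
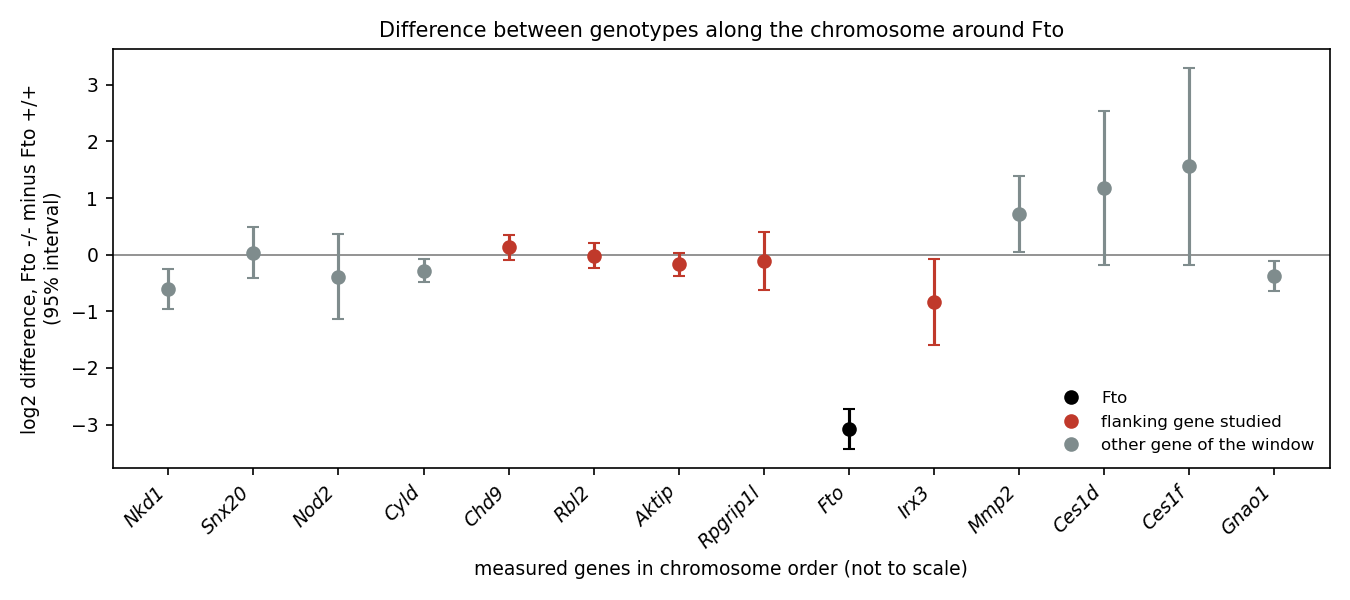
Log2 difference, Fto -/- minus Fto +/+, with 95% intervals for the measured genes of the window in chromosome order (black Fto, red the flanking genes studied, grey the others; distances not to scale). Fto lies at -3.08; Chd9, Rbl2, Aktip and Rpgrip1l lie within 0.17 of 0, Irx3 at -0.84 and Mmp2 at 0.71.

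Families and complexes of the flanking genes were taken as companion lists, with the flanking genes themselves left out. Of 69 companion genes tested 0 passed, and 15.9% had an unadjusted limma p under 0.05, beside 19.0% of all tested probes. In the Iroquois family 0 of 2 other tested genes passed. Irx2 differed by -0.27 ± 0.16 and Irx4 by 0.22 ± 0.15 (SE; limma adjusted p 0.409 and 0.439), while Irx1 was not above background on any array. Irx4 was above background on 4 Fto -/- and 2 Fto +/+ arrays and Irx2 on 3 and 4. Another Irx2 probe, for the same transcript, was not above background on any array (intensity 5.67 to 8.27). Of the retinoblastoma pocket protein, E2F and DREAM genes, the list taken for Rbl2, 0 of 18 passed (median -0.05). Lin52, a DREAM subunit gene, differed by -0.36 ± 0.11 and Mybl2, which encodes B-Myb, by 0.45 ± 0.14 (adjusted p 0.146 and 0.15). Of the ciliary transition zone genes, the partners of Rpgrip1l, 0 of 20 passed (median 0.06), with Tctn2 at -0.26 ± 0.10 and Nphp4 at 0.36 ± 0.16 (adjusted p 0.223 and 0.252).

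Of the Hook adaptor and vesicle tethering genes 0 of 8 passed (median -0.05); the tethering genes Vps16 and Vps18 differed by -0.35 ± 0.10 and -0.21 ± 0.09 (SE; limma adjusted p 0.109 and 0.262). Of the CHD remodellers 0 of 7 passed (median 0.01). Chd3, the helicase gene of a NuRD complex, was at 5.33 ± 0.14 in Fto -/- and 5.81 ± 0.09 in Fto +/+ samples (SD, n = 4 each), with no overlap and an adjusted p of 0.0611; Chd1 differed by 0.35 ± 0.17 (adjusted p = 0.303). Of the lysophospholipid acyltransferases, the enzyme class of Lpcat2, 0 of 12 passed (median -0.02). Agpat3 differed by 0.59 ± 0.13 and Agpat2 by 1.01 ± 0.26 (adjusted p 0.0702 and 0.0927). Agpat2 is abundant in fat cells, whose marker levels are given above and whose part here was not tested. With normexp background correction Chd3 (-0.49), Agpat2 (1.00) and Agpat3 (0.57) passed, with limma adjusted p of 0.0391, 0.0495 and 0.0484. Over all 25292 tested probes, limma then called 222 higher and 239 lower. In the TOX family 0 of 2 passed: Tox, which is high in developing T cells, was above background on 3 Fto -/- arrays and 1 Fto +/+ array, so its fitted difference of 1.22 ± 0.37 (adjusted p = 0.136) sets measured values against mostly unmeasured ones. The T cell levels above stand beside it and their part was not tested. Tox4 differed by 0.04 ± 0.14 (adjusted p = 0.893).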

How the data were processed

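Thoracic aorta RNA of 4 Fto -/- and 4 Fto +/+ samples was read on 1 array each. The deposited intensity values were made with Agilent Feature Extraction 11.0.1.1, with background subtracted and no scaling across arrays, per the file headers. The authors' deposited series table holds log2 values, centred on each probe's median, as found from the values (column medians -0.0095 to 0.0049; correlations with the centred scanner values 0.947 to 0.975 over 22233 probes); its normalisation is not stated in the sources used here.

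Control spots were left out, outlier spots (126 to 189 on an array) set to missing, and the log2 level was taken relative to the 75th percentile of intensity on each array (294.9 to 415.6). On an array 44.5% to 47.8% of probes were well above background. Of 55681 probes, 28331 were named through RefSeq accessions in a gene table of GRCm38.p6. The array is annotated on mm9, so that table gave names and gene order only. The 25292 probes well above background on at least 4 of 8 arrays were fitted with limma 3.58.1 in R 4.3.3 (lmFit, eBayes), with Benjamini-Hochberg adjustment over all of them and a threshold of 0.05. The fit was tested on simulated data. For the other genes of the window and the companion lists, the probe of highest mean stood for a gene.

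Genes and lists were chosen with earlier results of these data known. Named are Fto, the 10 genes, the members of each companion list and of the window past the threshold or else the 2 of smallest p, and the 5 genes most like Irx3. Mmp2, Cyld, Slc6a2, Ces1d, Ces1f and Irx1 were named after their values were seen. Alternatives were normexp, quantile normalisation, the series table, other filters, outlier spots kept, slide row, replicate number, single arrays left out and, chosen after seeing the data, marker levels as covariates and the arrays with Rag1 left out. The files hold no mean spot signal, so normexp used spot and background medians, with an offset of 50. All arrays lay on 1 slide with 1 scan time. In slide row 1 lay Fto +/+ replicate 1 and all Fto -/- replicates but the fourth, in row 2 the rest.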

Additional observations from a re-analysis of the deposited data

Results flagged for a closer look

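In 44 groups of 4 samples checked (22 genes, 2 genotypes), 4 held a sample far from the other 3; chance alone gives about 1 in 20. Irx3 was low in Fto -/- replicate 3, at -2.21 against -1.73 in the next sample. Chd9 was high in Fto +/+ replicate 2, at 2.28 against 2.08. Gnao1 was low in Fto -/- replicate 1, at 0.83 against 1.15, and Irx2 was low in Fto -/- replicate 4, at -2.94 against -2.46. The low Irx3 value in Fto +/+ replicate 2 (-2.06) was not among them, since the other 3 Fto +/+ samples were spread as well. Without Fto -/- replicate 3 the Irx3 difference was -0.71 (limma adjusted p = 0.451).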

How the results depend on the processing

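Over 22 alternatives each, Irx3 and Aktip stayed lower and Chd9 higher in Fto -/- samples. The count of flanking probes that passed in limma stayed at 0, except 1 lower (Irx3) without Fto +/+ replicate 2, so 0 to 1 without single arrays. In the fit without Fto +/+ replicate 2, 113 higher and 76 lower were called over all 25292 tested probes. Rbl2 turned in direction with normexp (0.01), slide row as a block (0.03), within slide row 1 (0.13) and without the arrays with Rag1 above background (0.01), and ran from -0.07 to 0.03 without single arrays. Rpgrip1l turned within row 2 (0 after rounding, just above it before), without the Rag1 arrays (0.13) and with the brown adipocyte covariate (0.35); it could not be tested where all 8 arrays had to be above background. Fto missed the threshold within row 1 (-3.02), within row 2 (-3.33) and without the Rag1 arrays (-2.66), each 1 array of a genotype against 3 of the other. Irx3 was -0.83 with slide row as a block (limma adjusted p = 0.431), -0.95 within row 1 and -0.71 within row 2. The row block took limma calls over all probes from 213 higher and 206 lower to 33 and 13. Slide row goes largely with genotype, so the row block separates them only in part. With normexp 2 companion genes were higher and 1 lower, beside 222 higher and 239 lower of all 25292 tested probes. With replicate number as a block Irx3 was -0.84 (adjusted p = 0.275) and Fto -3.08, while limma calls over all probes went from 213 higher and 206 lower to 90 and 42. The labels give no pairing, same-numbered samples deviated together (correlation over 0.1) in 1 of 4 pairs, and the block changed no call of Fto or the 5 tested flanking genes. Signal over background limits Irx5, Irx6, Crnde, Tox3 and Lpcat2, which were not tested, and tested genes below background on some arrays, among them Rpgrip1l, Irx2, Irx4, Tox, Ces1f, Pgpep1l and Dclre1c.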
